A study of Mus musculus with 24 samples.

Results

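The genes described here are 39 genes that encode the enzymes and carriers of fatty acid beta-oxidation in mitochondria and peroxisomes and of ketone body formation. They were taken by gene symbol from a list that names the pathway's genes, by a rule that uses no measured value, although the list was drawn up with earlier results of these data known. All 39 were found among the 55421 genes of the count table. The list holds 20 mitochondrial genes, 17 peroxisomal genes and 2 ketone body genes. Its coverage of ketone body formation is therefore thin.

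RNA was sequenced from hepatocytes isolated from the livers of 24 male C57BL/6 mice, 6 in each of 4 groups. Young mice, labelled as 6 months old and of substrain C57BL/6N, and old mice, labelled as 24 months old and of substrain C57BL/6J, were fed a normal diet (ND, a standard chow by the labels) or a high-fat diet (HFD) with 60% of its energy from fat for 9 weeks. Substrain changed with age in every mouse, and the 2 cannot be told apart. Diet was the only treatment named in the labels. The labels put 3 mice of each group in each of 2 batches, except for old ND with 2 mice in batch 1 and 4 in batch 2. Total counts per library ran from 9200332 to 22185069, lowest in the old HFD group. Even the lowest count of any of the 39 genes in any mouse, 84 reads of *Abcd2*, lay well above 0.

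Beta-oxidation shortens fatty acids by a pair of carbons per turn. Long chains are activated to acyl-CoA esters and carried into mitochondria as carnitine esters, where dehydrogenases, hydratases and thiolases release acetyl-CoA and pass electrons to the respiratory chain. Peroxisomes take very long, branched and other difficult chains and shorten them for export, and in liver much of the acetyl-CoA is turned into ketone bodies for other tissues. Many of the genes are known targets of the fatty acid receptor PPAR alpha.

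The measure used throughout is CPM, the counts of a gene relative to the library total, scaled by the trimmed mean of M values (TMM). Differences are log2 fold changes with their standard error (SE) from edgeR's quasi-likelihood test with batch as a term, fitted to all 24 mice. A gene was called where its Benjamini-Hochberg adjusted p over 13583 tested genes was under 0.05, and all 39 genes were tested. Of the 39 genes, 14 were called in 1 or more of 6 comparisons, in 19 calls, and 25 were called in none. The same count was not made over all tested genes, of which old HFD over young ND alone called 17.3% higher and 12.9% lower. No result is read from the 14.

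Levels can be compared between genes only per length. Per kilobase of annotated exon, young ND hepatocytes held most *Scp2*, which makes the thiolase SCPx and the sterol carrier protein, at 979, 1169 and 1472 CPM per kb (lowest, median and highest of 6 mice). *Phyh*, the first enzyme of phytanic acid alpha-oxidation, followed with a median of 977 CPM per kb, its range overlapping that of *Scp2*. The thiolases *Acaa1b* (peroxisomal, 669.9 CPM per kb) and *Acaa2* (mitochondrial, 609 CPM per kb) came next, and their ranges overlapped each other but not those of the genes above or below the pair. *Etfa*, the alpha subunit of the electron transfer flavoprotein, opened the long middle of the order at 182 CPM per kb. At the low end stood the carnitine acetyltransferase *Crat* (12.7 CPM per kb), the peroxisomal transporter *Abcd2* (5.19 CPM per kb) and the branched-chain oxidase *Acox3* (2.44 CPM per kb). Only 5 of the 38 neighbouring pairs in this order had ranges that did not overlap. The arms had medians of 60.9 (mitochondrial), 107 (peroxisomal) and 90.3 (ketone body) CPM per kb.

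**Figure D1:**
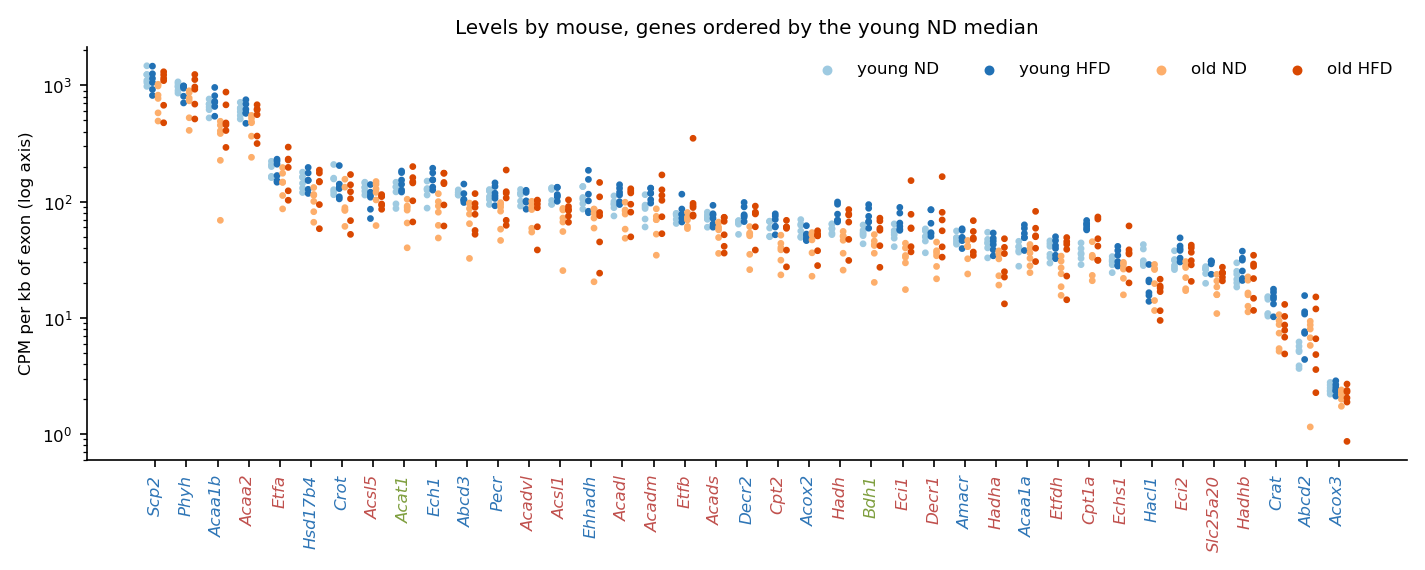
Level of each of the 39 genes in each of the 24 mice, as CPM per kilobase of exon on a log axis, with genes ordered by the young ND median and names coloured by arm (red mitochondrial, blue peroxisomal, green ketone body). *Scp2*, *Phyh*, *Acaa1b* and *Acaa2* lie above the other genes in young ND mice, and *Crat*, *Abcd2* and *Acox3* lie at the bottom.

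Promoter sequence is shown for the gene with the clearest response to HFD in young mice and for the pair of genes that share a promoter. RefSeq windows of 250 bases before to 50 bases after the start (GRCm38.p6) were found for 32 of the 39 genes. A direct repeat of AGGTCA with 1 base between, the kind of element that PPAR alpha is known to bind, was found in no window of the 32 genes on either strand, and in 0.0481% of 27025 genes. The looser repeat of AGGNCA with 1 base between was likewise in none of the 32, and in 0.451% of all genes. These counts say only that the letters are not in these windows. Of single elements searched on both strands, GGGCGG was in 24 of the 32 genes (38.2% of all genes), CCAAT in 15 (41.1%) and AGGTCA in 6 (18.1%). *Cpt1a* was 1 of the 6 genes with AGGTCA, and the 250 bases before its RefSeq start are printed with every match to these 3 elements in capitals, on either strand. In the GENCODE vM21 annotation the *Cpt1a* locus starts at 3322334, so this window lies inside it, and 16 of its bases lie in annotated exons. *Hadha* and *Hadhb*, the alpha and beta subunits of the mitochondrial trifunctional protein, start head to head, and the 85 bases between the annotated loci hold GGGCGG 2 times.
Cpt1a, chr19:3323051-3323300, plus strand: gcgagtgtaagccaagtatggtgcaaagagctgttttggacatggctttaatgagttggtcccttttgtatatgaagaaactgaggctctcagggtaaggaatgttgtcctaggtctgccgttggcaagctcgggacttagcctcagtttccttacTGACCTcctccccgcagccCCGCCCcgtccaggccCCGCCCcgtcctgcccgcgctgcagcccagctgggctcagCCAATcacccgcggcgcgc
Hadha-Hadhb, chr5:30155163-30155247, plus strand: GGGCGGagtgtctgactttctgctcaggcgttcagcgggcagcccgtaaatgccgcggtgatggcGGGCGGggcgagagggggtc

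To ask how HFD changed these genes in young hepatocytes, young HFD was compared with young ND. *Cpt1a*, the liver carnitine palmitoyltransferase that admits long-chain fatty acids to the mitochondrion, rose 1.73-fold, and *Hacl1*, the peroxisomal lyase of alpha-oxidation, fell by 41.8%. No other gene was called, so the calls were 1 higher against 1.91% of all tested genes and 1 lower against 1.59%. The count moved with the fit: DESeq2 called 3 higher and 1 lower (2.57% and 1.18% of all genes in its test), and with only the young mice in the fit 14 were called higher and 1 lower (10.4% and 8.27% of all genes). Without the batch term, in batch 1 alone and in batch 2 alone edgeR called 0. Those fits called 0.633%, 0.701% and 0.0281% of all genes higher and 0.648%, 0.258% and 0.0351% lower. Limma on the FPKM values called only *Cpt1a* (0.293% of all genes higher and 0.343% lower). The fitted values leaned upwards: 30 of the 39 genes were positive, with a median log2 fold change of 0.14 against 0.01 over all tested genes.

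*Cpt1a* (chromosome 19, 3322334 to 3385733, plus strand) ran from 219 to 337 CPM in young ND mice with a median of 272, and from 436 to 526 CPM in young HFD mice with a median of 479. The groups did not overlap, and all 6 HFD mice lay above all 6 ND mice. Its log2 fold change was 0.79 ± 0.18 (SE, adjusted p = 0.0201), with 0.79 in batch 1 and 0.82 in batch 2. *Hacl1* (chromosome 14, 31598730 to 31641286, minus strand) had 139, 149.8 and 211 CPM in young ND mice (lowest, median and highest) and 68.6, 91.2 and 142 CPM in young HFD mice. 5 HFD mice lay below every ND mouse, and replicate 2 of young HFD overlapped the ND range. The log2 fold change was −0.78 ± 0.18 (SE, adjusted p = 0.0201), with −0.78 and −0.76 in the batches. In GENCODE vM21, 31.1% of the *Hacl1* exon length is shared with another annotated gene on the same strand, so its counts depend on how shared reads were assigned. Each of the calls on *Cpt1a* and *Hacl1* was lost in 3 of the 24 fits that left out 1 mouse: *Cpt1a* without young ND replicate 1, 2 or 4, and *Hacl1* without young HFD replicate 1, 3 or 5.

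Among the genes that missed the threshold, *Hadh*, the short-chain hydroxyacyl-CoA dehydrogenase, also had no overlap between the diets in young mice, with 259 to 321 CPM on ND and 333 to 494 CPM on HFD. Its log2 fold change was 0.43 ± 0.16 (SE) and its adjusted p was 0.12 by edgeR's quasi-likelihood test. *Abcd2*, a peroxisomal importer of very long chains, had the highest fitted value of the list, 0.82 ± 0.33 (SE, adjusted p = 0.151), over HFD levels that spread from 26.1 to 92.4 CPM.

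**Figure D2:**
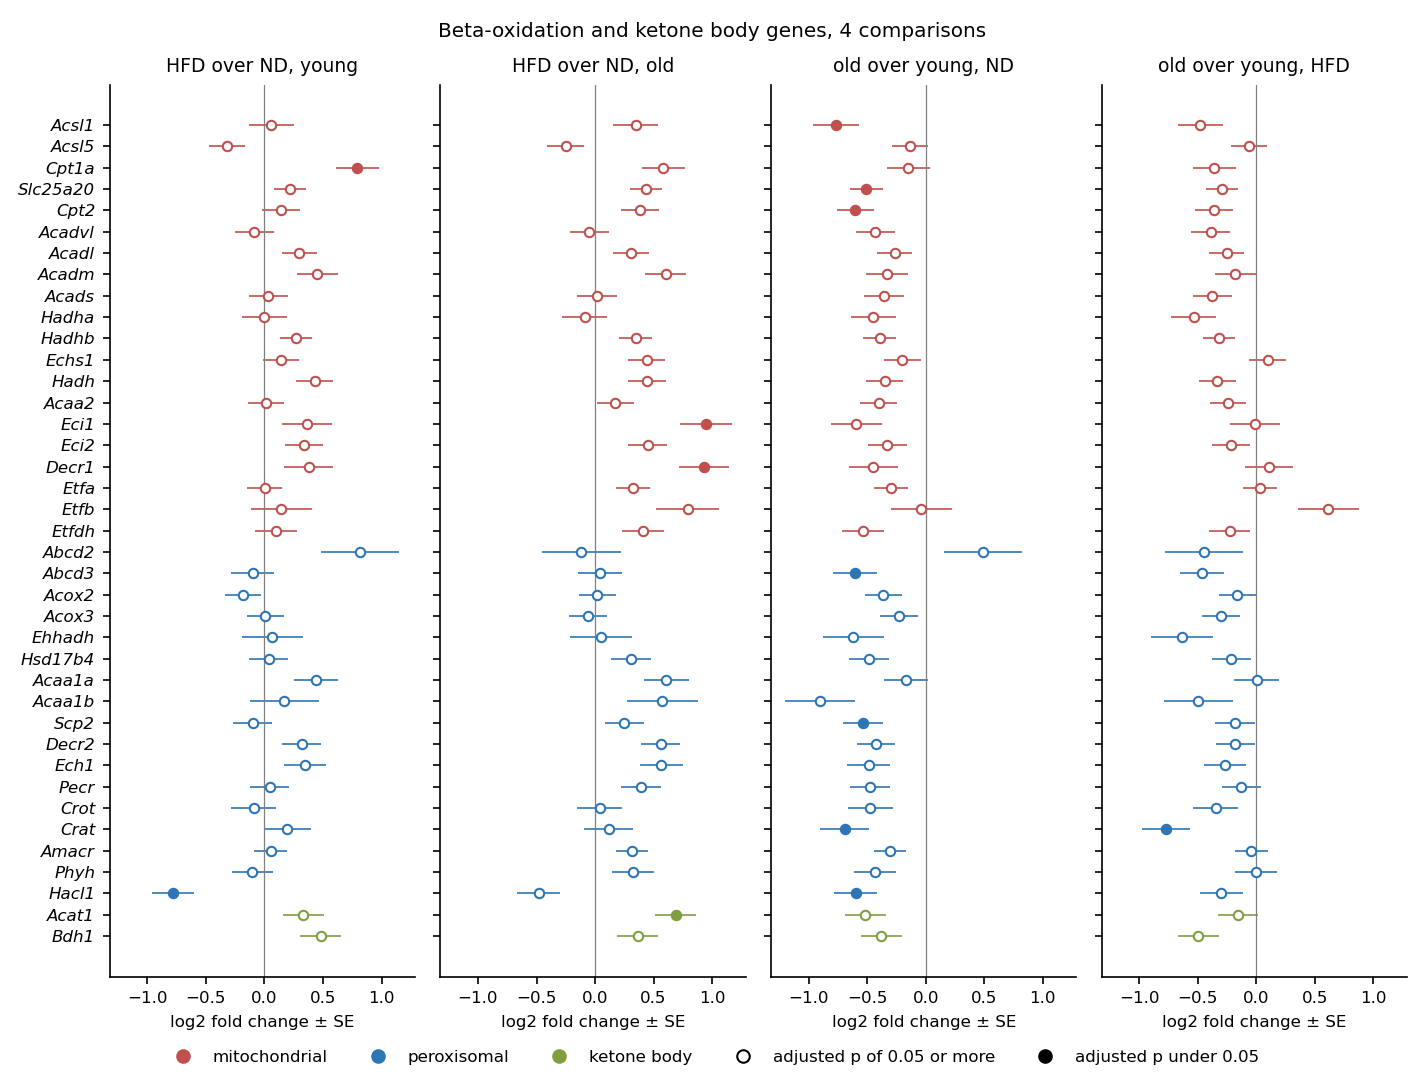
Log2 fold change ± SE of each of the 39 genes in 4 comparisons from edgeR's quasi-likelihood test on 24 mice, coloured by arm, with filled points where the adjusted p was under 0.05. On ND, 38 of the 39 genes lie to the left of 0 in old over young mice, and 33 lie to the right of 0 in HFD over ND among old mice.

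In old mice HFD gave 3 calls, all higher. They were *Eci1* and *Decr1*, which convert unsaturated acyl-CoA intermediates into substrates of the mitochondrial spiral, and *Acat1*, the mitochondrial acetoacetyl-CoA thiolase. Of all tested genes, 1.37% were called higher and 1.64% lower in this comparison, against 3 and 0 of the 39. The count moved with the fit: DESeq2 called 12 higher (1.83% of all genes in its test). With only the old mice in the fit, or with limma on the FPKM values, 0 were called, in fits that called 0.0318% and 0.263% of all genes higher. Positive values were found for 33 of the 39 genes, with a median of 0.35 (−0.01 over all tested genes), and 20 genes were higher at an unadjusted p under 0.05, against 1 lower (1481 higher and 1509 lower among all 13583 tested genes).

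*Eci1* (chromosome 17, 24426641 to 24439348, plus strand) had 37.3, 72.0 and 93.3 CPM in old ND mice (lowest, median and highest) and 78.6, 126 and 322 CPM in old HFD mice. The ranges overlapped, with 4 HFD mice above every ND mouse and replicate 2 of old HFD far above the others. The fold change was 1.93, a log2 value of 0.95 ± 0.22 (SE, adjusted p = 0.0231), with 1.27 in batch 1 and 0.60 in batch 2.

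*Decr1* (chromosome 4, 15917240 to 15945507, minus strand) followed the same pattern over the mice, from 84.1 to 174 CPM on ND (median 137) and from 129 to 636 CPM on HFD (median 244). Again 4 HFD mice lay above the ND range and replicate 2 of old HFD was the highest. The log2 value was 0.93 ± 0.21 (SE, adjusted p = 0.0231), or 1.91-fold. *Eci1* and *Decr1* lost their calls without old ND replicate 1 or 2, and kept them without old HFD replicate 2.

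The genes for unsaturated chains included 2 of the 3 calls in old mice. All 6 of them (*Eci1*, *Eci2* and *Decr1* in mitochondria, *Decr2*, *Ech1* and *Pecr* in peroxisomes) had positive values on HFD at an unadjusted p under 0.05, a level that 1481 of all 13583 tested genes reached in that direction, with log2 fold changes from 0.39 (*Pecr*) to 0.95 (*Eci1*). In young mice the values ran from 0.04 (*Pecr*) to 0.38 (*Decr1*), and none of the 6 reached an unadjusted p under 0.05 in this fit. A fit to the young mice alone called all but *Pecr* higher, where 10.4% of all genes were. A fit to the old mice alone called none of the 6, where 0.0318% of all genes were called higher. No difference between the ages is therefore read from these genes. Of the peroxisomal first step, *Acox2* and *Acox3*, the branched-chain acyl-CoA oxidases, had log2 fold changes of 0.02 and −0.06 on HFD in old mice, neither called. At an unadjusted p under 0.05 in edgeR, all 3 electron transfer genes and the 2 ketone body genes were also higher on HFD in old mice. So were 3 of 5 genes of activation and the carnitine shuttle and 3 of 5 genes from hydration to thiolysis. Of the acyl-CoA dehydrogenases 1 of 4 was, and of the peroxisomal thiolases 1 of 3. These steps were not tested against each other.

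The 2 ketone body genes had positive values on HFD at both ages. *Acat1* (chromosome 9, 53580522 to 53610382, minus strand) had 328, 479 and 551 CPM in young ND mice (lowest, median and highest) and 454, 553 and 689 CPM in young HFD mice. Old ND mice had 151, 325 and 394 CPM, and old HFD mice 251, 550.2 and 752 CPM. On HFD, 4 of the 6 old mice lay above every old ND mouse, and replicate 4 was the lowest mouse of both old groups. Its change in old mice was 0.69 ± 0.18 (SE, adjusted p = 0.0324, 1.61-fold), and in young mice 0.33 ± 0.17 (SE, adjusted p = 0.278). The call in old mice was lost without old ND replicate 1, 2 or 3, or without old HFD replicate 2.

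*Bdh1*, the beta-hydroxybutyrate dehydrogenase of the last step (chromosome 16, 31422280 to 31458901, plus strand), had 169, 207 and 245 CPM in young ND mice and 229.5, 276 and 366 CPM in young HFD mice. Old ND mice had 78.5, 164 and 202 CPM, and old HFD mice 106, 225 and 280.1 CPM. In young mice 5 of 6 HFD values lay above the ND range, and among old mice 4 of 6 did. *Bdh1* was called in no comparison: its HFD values were 0.48 ± 0.17 in young mice (SE, adjusted p = 0.107) and 0.36 ± 0.17 in old mice (SE, adjusted p = 0.22).

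Of the genes called in no comparison, 11 were mitochondrial: *Acsl5* of activation, the dehydrogenases *Acadl*, *Acadm* and *Acads*, *Echs1*, *Hadh*, *Hadhb* and *Acaa2* of the later steps, *Eci2*, and *Etfa* and *Etfdh* of electron transfer. Another 13 were peroxisomal (*Abcd2*, *Acox2*, *Acox3*, *Ehhadh*, *Hsd17b4*, *Acaa1a*, *Acaa1b*, *Decr2*, *Ech1*, *Pecr*, *Crot*, *Amacr* and *Phyh*), and the last was *Bdh1*. On HFD their log2 fold changes ran from −0.32 (*Acsl5*) to 0.82 (*Abcd2*) in young mice and from −0.25 (*Acsl5*) to 0.61 (*Acaa1a*) in old mice. *Acadm* had 237 to 449 CPM in young ND and 379.9 to 512 CPM in young HFD mice, and 135 to 339 CPM in old ND and 207 to 664 CPM in old HFD mice. Its ranges overlapped at both ages, and in old mice it missed the threshold narrowly at 0.60 (adjusted p = 0.0591).

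To ask how age changed these genes on ND, old ND (C57BL/6J) was compared with young ND (C57BL/6N). Of the 39 genes, 7 were called lower and 0 higher in old hepatocytes, where 1.24% of all tested genes were called lower and 7.26% higher. Negative fitted values were found for 38 of the 39, most of them not called, *Abcd2* being the exception at 0.49 ± 0.33 (SE, adjusted p = 0.414). The median log2 fold change was −0.43, against 0.01 over all tested genes. At an unadjusted p under 0.05, 28 genes were lower and 0 higher, against 984 lower and 2036 higher among all 13583 tested genes. DESeq2 called 10 lower and 0 higher (0.721% of all genes lower), and edgeR without the batch term called 4 lower (0.648%). Limma on the FPKM values and edgeR in batch 1 or batch 2 alone called 0, in fits that called 0.0572%, 0.00738% and 0% of all genes lower. Without 4 old mice with high levels of Kupffer cell markers, described further on, edgeR also called 0 and the median was −0.26; markers of Kupffer cells, leukocytes, endothelial and stellate cells were called higher in this comparison. The medians by arm were −0.38 for the mitochondrial, −0.48 for the peroxisomal and −0.45 for the ketone body genes.

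In the mitochondrial arm all 3 calls of the fit to all 24 mice fell in activation and the carnitine shuttle, the steps that bring fatty acids in. *Acsl1*, the main long-chain acyl-CoA synthetase of liver (chromosome 8, 46471037 to 46536051, plus strand), had 991, 1202 and 1376 CPM in young ND and 267, 729 and 916 CPM in old ND mice (lowest, median and highest). No old ND mouse reached the lowest young ND mouse, and old ND replicate 4 was lowest by a wide margin. The log2 fold change was −0.77 ± 0.20 (SE, adjusted p = 0.016), −0.74 in batch 1 and −0.72 in batch 2, and this call was kept in all 24 fits that left out 1 mouse. With only the ND mice in the fit it was −0.70 (adjusted p = 0.0543) and not called, and the calls on *Slc25a20* and *Abcd3*, described next, were also lost there. Of the mitochondrial arm that fit called *Cpt2* and, at other steps, *Etfdh*, *Decr1*, *Hadhb* and *Eci1*, where 3.49% of all genes were called lower. DESeq2 added *Etfdh* to the 3 calls. The steps were not tested against each other.

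The inner membrane carrier *Slc25a20* (chromosome 9, 108662088 to 108684641, plus strand) had 96.1, 127 and 134 CPM in young ND and 52.8, 83.1 and 115 CPM in old ND mice, with 4 old mice below the young range. Its log2 fold change was −0.51 ± 0.14 (SE, adjusted p = 0.0224). *Cpt2*, which hands the acyl group back to CoA inside the mitochondrion (chromosome 4, 107903981 to 107923610, minus strand), had 119, 151 and 162 CPM in young ND and 56.0, 94.1 and 123 CPM in old ND mice, with 5 old mice below the young range. Its log2 fold change was −0.60 ± 0.16 (SE, adjusted p = 0.0209). *Cpt1a* of the same shuttle was not called: old ND mice had 159.5 to 345 CPM and the log2 fold change was −0.15 ± 0.18 (SE, adjusted p = 0.687).

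The peroxisomal arm gave 4 calls on ND. *Abcd3*, the transporter of branched and other acyl-CoA esters into the peroxisome (chromosome 3, 121758774 to 121815302, minus strand), had 749, 778 and 832 CPM in young ND and 214, 545 and 640.3 CPM in old ND mice, without overlap, for a log2 fold change of −0.61 ± 0.19 (SE, adjusted p = 0.0446). *Scp2* (chromosome 4, 108043839 to 108144998, minus strand) had 3405, 4066 and 5120 CPM in young ND and 1714, 2772 and 3550 CPM in old ND mice, with 4 old mice below the young range, and a log2 fold change of −0.54 ± 0.17 (SE, adjusted p = 0.0493). Old ND replicate 4 was the lowest mouse for both. *Crat* (chromosome 2, 30400471 to 30415813, minus strand) had 55.7, 68.3 and 82.1 CPM in young ND and 27.8, 43.5 and 57.4 CPM in old ND mice, and fell by 0.69 ± 0.21 on the log2 scale (SE, adjusted p = 0.0371).

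*Hacl1*, lower on HFD in young mice, was also lower with age on ND, at 57.2, 113 and 143 CPM in old ND mice, 5 of which lay below the young ND range. The log2 fold change was −0.60 ± 0.18 (SE, adjusted p = 0.0406). The thiolase *Acaa1b* had the lowest fitted value of all, −0.90 ± 0.30 (SE, adjusted p = 0.0647), and no overlap between the groups, from 1029 to 1496 CPM in young ND and from 135 to 963 CPM in old ND mice. Its close paralog *Acaa1a* was at −0.17 ± 0.19 (SE, adjusted p = 0.654). The longest protein-coding transcripts of the 2 genes are 96% identical over 1450 aligned bases, so reads of 1 may have been counted for the other or dropped.

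The calls on ND with age differed in how far they rested on single mice. Those on *Cpt2* and *Slc25a20* were kept in 21 and 20 of the 24 fits that left out 1 mouse, and those on *Crat*, *Hacl1*, *Abcd3* and *Scp2* in 18, 16, 8 and 6. All 6 were lost without old ND replicate 2 or 4 or young ND replicate 5, and all but that on *Cpt2* also without old ND replicate 3.

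**Figure D3:**
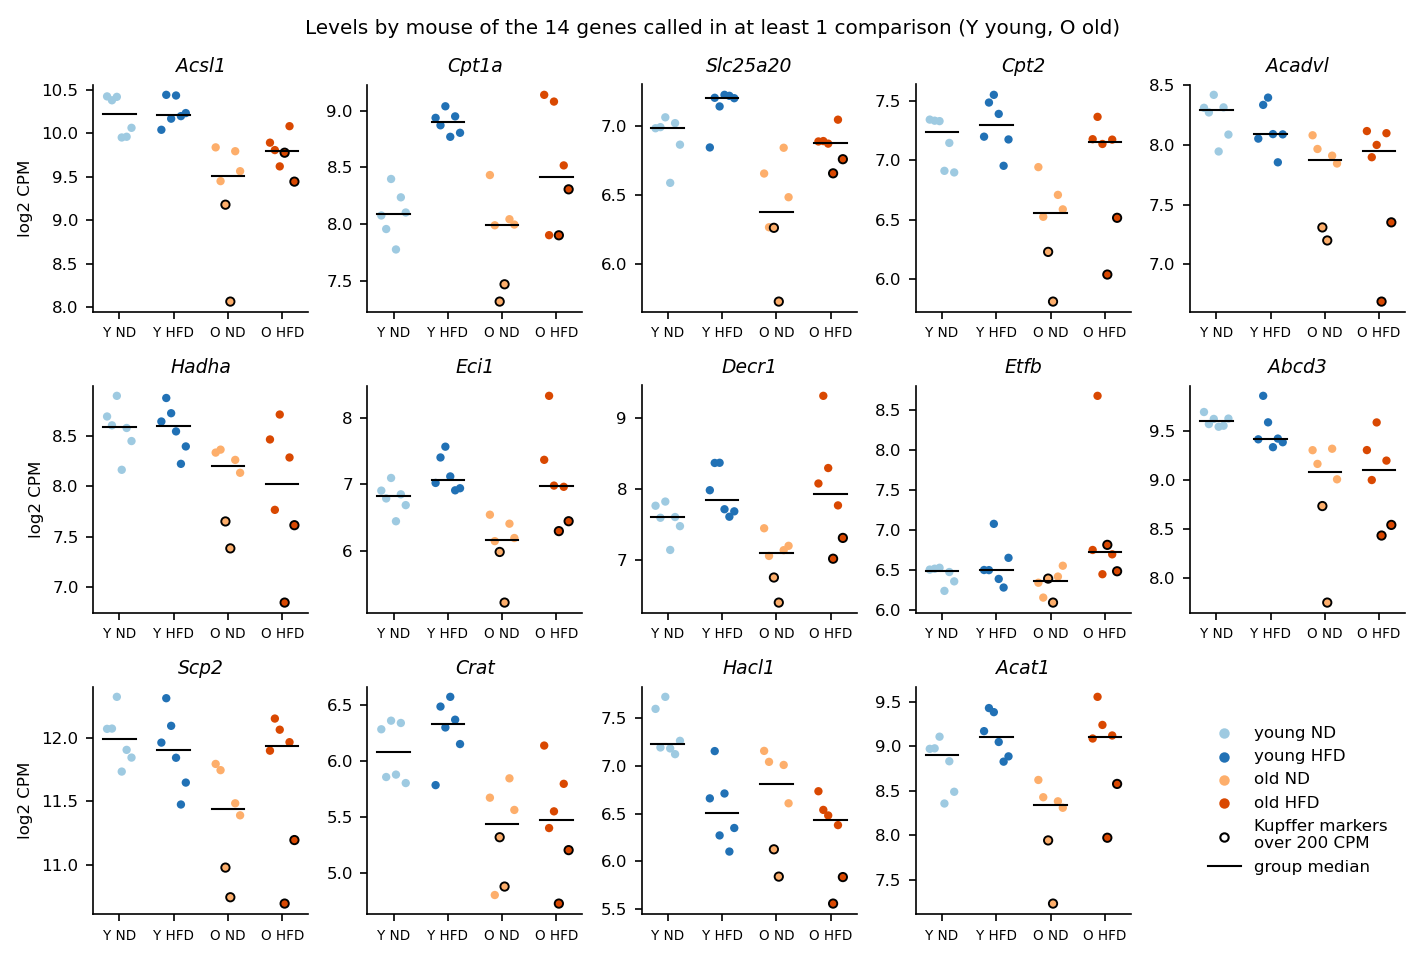
Log2 CPM of the 14 called genes in each of the 24 mice, with group medians as lines and a black outline around the 4 old mice whose summed Kupffer cell markers exceeded 200 CPM. In most panels the outlined mice are the lowest of their group, and *Cpt1a* is higher in every young HFD mouse than in every young ND mouse.

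The old libraries were not alike, and this bears on every age comparison. Averaged over the 39 genes relative to the young ND mean, log2 levels ran from −0.26 to 0.22 in young mice on ND and from −0.08 to 0.39 in those on HFD. Old mice spread further, from −1.28 to −0.11 on ND and from −0.87 to 0.27 on HFD. The lowest old ND mice were replicates 4 (−1.28) and 3 (−0.70), and the lowest old HFD mice were replicates 4 (−0.87) and 6 (−0.50). The 39 genes together took a median of 1.83% (ND) and 1.93% (HFD) of counts in young mice and 1.38% (ND) and 1.79% (HFD) in old mice, with 0.63% in old ND replicate 4.

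The same 4 mice had the highest summed levels of Kupffer cell and leukocyte markers. The Kupffer cell is the resident macrophage of the liver. The summed level of 6 Kupffer cell markers was 652 and 493 CPM in old ND replicates 4 and 3 and 332 and 202 CPM in old HFD replicates 6 and 4, and at most 98.9 CPM in the other 20 mice. Group medians of the Kupffer cell sum were 13.6 (ND) and 51.8 CPM (HFD) in young mice and 55.0 (ND) and 53.1 CPM (HFD) in old mice. Those of 10 leukocyte markers were 4.84 and 26.9 CPM in young and 66.5 and 66.3 CPM in old mice, with *Cd79a* at 0 in every young ND mouse. In old over young on ND, 6 of 6 Kupffer cell, 4 of 5 tested endothelial, 5 of 6 stellate and 4 of 5 tested leukocyte markers were called higher by edgeR, and of 6 hepatocyte markers 0 were called in either direction (median −0.26). Old ND replicate 4 and old HFD replicates 4 and 6 were also the highest for endothelial and stellate markers, whereas old ND replicate 3 (149 and 175 CPM) lay below young HFD replicate 5 (217 and 188 CPM). The diet comparison in old mice had 0 markers called in any of these lists, and in young mice 1 endothelial and 1 stellate marker were called higher on HFD, with 6 of 6 Kupffer cell markers positive (median 2.06) but none called. The hepatocyte sum was at its lowest, 38333 CPM, in old ND replicate 4, and at least 64262 CPM in all other mice. In such bulk samples fewer hepatocytes and less RNA per hepatocyte cannot be told apart.

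**Figure D4:**
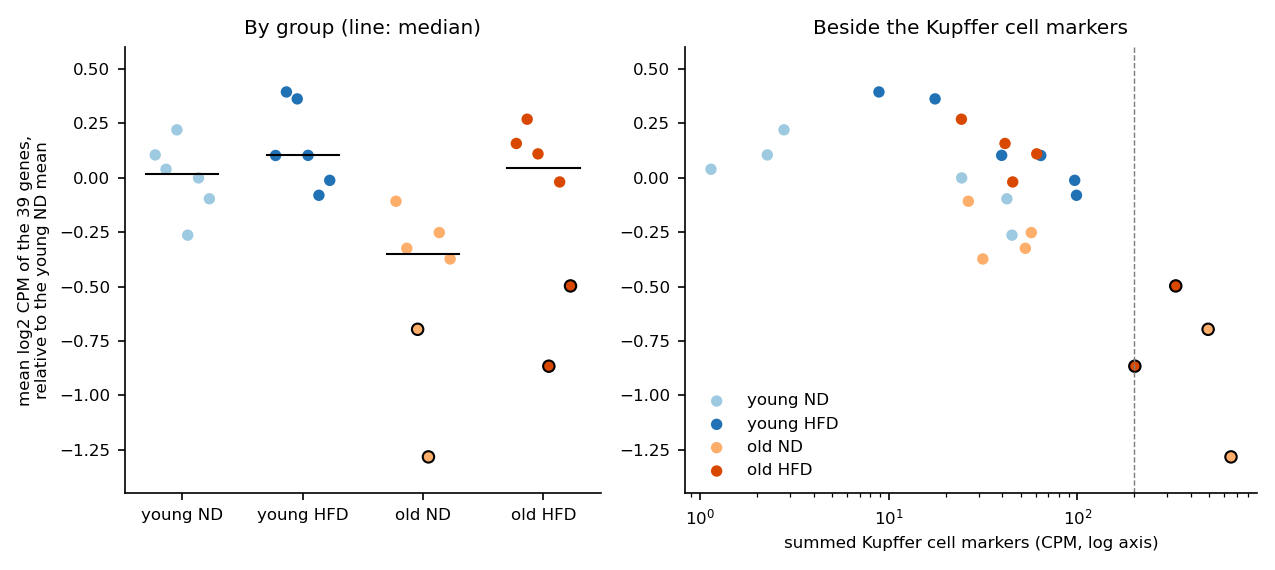
Mean log2 CPM of the 39 genes in each mouse, relative to the young ND mean, by group (left, line at the median) and against the summed Kupffer cell markers in CPM on a log axis (right, dashed line at 200 CPM). The 4 mice to the right of the dashed line, all old and in batch 2, have the 4 lowest levels, from −1.28 to −0.50.

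Without these 4 mice the age calls were lost and the diet calls grew in number. This fit, chosen after seeing the data, kept 6, 6, 4 and 4 mice. In old over young on ND, 37 of 39 values stayed negative with a median of −0.26, but 0 genes were called (19 lower and 1 higher at an unadjusted p under 0.05) where 0.0589% of all tested genes were called lower. At the unadjusted level all tested genes were not counted in this fit. All 7 genes called before kept negative values nearer to 0. *Acsl1* was at −0.53 (adjusted p = 0.0728), *Cpt2* at −0.45 (adjusted p = 0.0677) and *Slc25a20* at −0.34 (adjusted p = 0.179). In the peroxisomal arm *Crat* was at −0.58 (adjusted p = 0.163), *Abcd3* at −0.39 (adjusted p = 0.118), *Hacl1* at −0.38 (adjusted p = 0.258) and *Scp2* at −0.37 (adjusted p = 0.106). Batch 1 alone, which holds none of the 4 mice, also gave 37 negative values and a median of −0.28 from 3 young and 2 old mice, with no call.

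In the same 20 mice, HFD gave 11 calls in old mice, all higher, against 1.54% of all tested genes, and included the 3 called before. The 8 added genes were *Acadm*, *Hadh*, *Hadhb*, *Echs1*, *Etfa* and *Etfdh* of the mitochondrial spiral and its electron transfer, and *Decr2* and *Ech1* of the peroxisome. *Acadm*, the medium-chain acyl-CoA dehydrogenase, had a log2 fold change of 0.65 ± 0.14 (SE, adjusted p = 0.0177). In young mice HFD gave 9 calls higher and 1 lower, against 4.95% and 2.95% of all tested genes. No young mouse was left out for those calls, and the cause of the rise in their number was not tested. The calls of both ages had 6 genes in common (*Acadm*, *Acat1*, *Decr2*, *Ech1*, *Hadh* and *Hadhb*), 60% of the young and 54.5% of the old list. The same overlap was not counted over all tested genes. The 2 comparisons share no mice, but they come from 1 fit with a shared estimate of spread and are not independent. No result is read from the overlap. Among the added calls in young mice was *Bdh1*, at 0.50 ± 0.10 (SE, adjusted p = 0.00487).

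**Figure D5:**
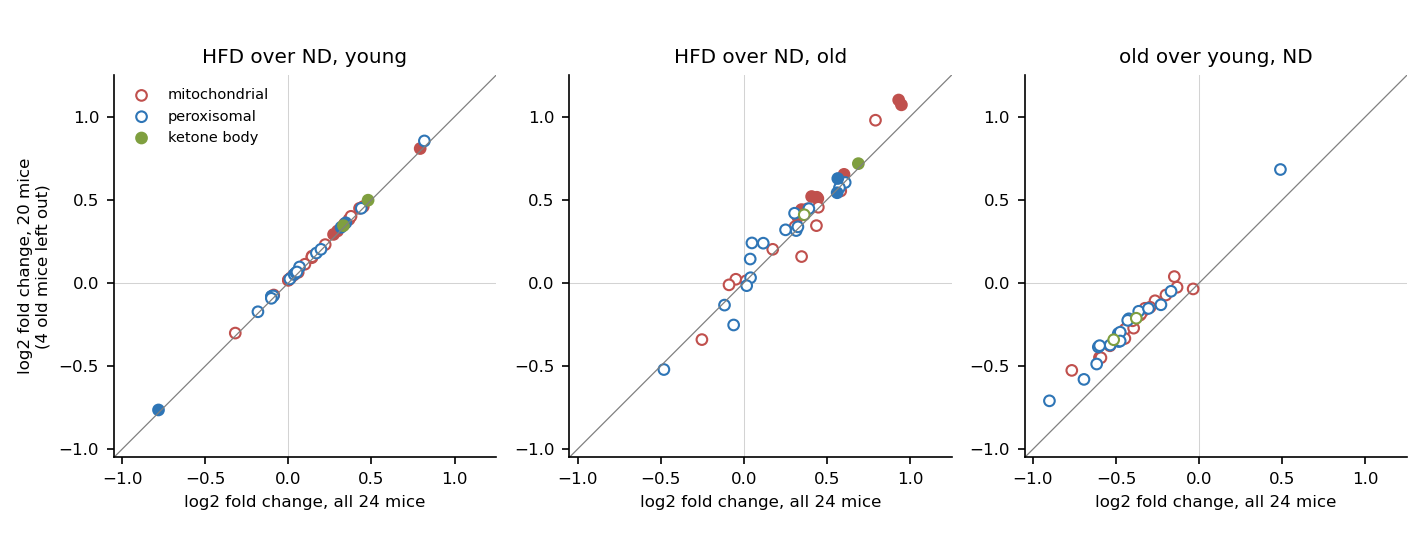
Log2 fold change of each of the 39 genes from all 24 mice (horizontal) against the fit without the 4 old mice over 200 CPM of Kupffer cell markers (vertical), filled where called in the latter, with a line of equality. Age values on ND lie nearer to 0 in the latter fit for 38 genes, *Abcd2* being the exception (0.49 to 0.68), and none is filled, whereas many diet values are filled.

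On HFD the age comparison gave a single call. Old HFD over young HFD had 34 of 39 negative values with a median of −0.25 (0.01 over all tested genes), and 1 gene called lower against 0.42% of all tested genes, with 0 higher against 1.82%. The called gene was *Crat*, at 55.0, 80.6 and 95.1 CPM in young HFD and 26.4, 44.5 and 70.3 CPM in old HFD mice. 4 old HFD mice lay below the young HFD range. Its log2 fold change was −0.77 ± 0.21 (SE, adjusted p = 0.0457), and the call was kept in only 7 of 24 fits that left out 1 mouse. Without the 4 mice *Crat* was at −0.54 (adjusted p = 0.155), and 0 genes were called where 0.0736% of all tested genes were called lower. The median of the 39 genes was then −0.07, with 25 values negative, against −0.03 over all tested genes. At an unadjusted p under 0.05, 3 were higher and 7 lower, a level at which all tested genes were not counted.

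Whether diet acted differently at the 2 ages was tested by the interaction term. No gene of the 39 was called, and none of all tested genes either (0%). None of the 39 reached an unadjusted p under 0.05 in edgeR, against 1247 of 13583 genes, and DESeq2 likewise called none of the 39. Without a count filter edgeR called 1, *Abcd2* (−0.96 ± 0.22, SE, adjusted p = 0.00129), which was named after its value was seen. That fit called 1.51% of all genes below 0 and 0.309% above 0. Without the 4 mice 0 were called and 10 reached an unadjusted p under 0.05, 9 of them above 0. Fitted interactions ran from −0.93 ± 0.47 (*Abcd2*, SE) to 0.65 ± 0.37 (*Etfb*, SE), with 31 of 39 above 0. Larger HFD values in old than in young mice are thus not shown to be a difference between the ages.

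Old HFD was last set against young ND, the 2 groups that differ in both age and diet. Here edgeR called 6 of 6 Kupffer cell, 5 of 5 tested leukocyte, 5 of 5 endothelial and 4 of 6 stellate markers higher. Of 6 hepatocyte markers it called 2 lower and 1 higher. The mitochondrial median was −0.01, the peroxisomal median −0.28 and the ketone body median 0.08. The ranges of the arms overlapped (−0.54 to 0.76 in the mitochondrial and −1.08 to 0.44 in the peroxisomal arm), and without the 4 mice the medians were 0.20, −0.05 and 0.29. 5 of the 39 genes were called lower and 1 higher, where 12.9% of all tested genes were called lower and 17.3% higher, so these shares lie at or under those of all genes. *Hacl1* was the clearest, at 47.0, 86.2 and 106 CPM in old HFD mice, every one below every young ND mouse. It fell by 52.7%, a log2 fold change of −1.08 ± 0.18 (SE, adjusted p = 0.000376), −0.96 in batch 1 and −1.22 in batch 2. This call was kept in all 24 fits that left out 1 mouse and stood at −0.90 (adjusted p = 0.00107) without the 4 mice.

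*Abcd3* (−0.57 ± 0.19, SE, adjusted p = 0.0262) and *Crat* (−0.58 ± 0.20, SE, adjusted p = 0.0362) were lower in this comparison too. In old HFD mice *Abcd3* had 345, 550.4 and 772 CPM, with 5 of 6 mice below the young ND range. *Acadvl*, the very-long-chain acyl-CoA dehydrogenase (chromosome 11, 70010183 to 70015411, minus strand), had 246, 313 and 341 CPM in young ND and 103, 247 and 277 CPM in old HFD mice, 3 of them below the young range. The log2 value was −0.48 ± 0.17 (SE, adjusted p = 0.0343). Of its exon length, 42.9% is shared with *Dvl2* on the opposite strand, and whether counting used strand is not stated.

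Of the trifunctional pair, *Hadha* was called and *Hadhb* was not. *Hadha* (chromosome 5, 30118304 to 30155162, minus strand) had 287, 385 and 476 CPM in young ND and 115, 265 and 419 CPM in old HFD mice, a log2 fold change of −0.54 ± 0.19 (SE, adjusted p = 0.0369), with 3 old mice below the young range. *Hadhb* (chromosome 5, 30155248 to 30184593, plus strand), which starts from the promoter printed above, had 121, 149 and 196 CPM against 76.5, 163 and 228 CPM, a log2 fold change of −0.05 ± 0.14 (SE, adjusted p = 0.819). The difference between the 2 genes was not tested. The calls on *Acadvl*, *Crat* and *Hadha* were kept in 18, 16 and 15 of the 24 fits that left out 1 mouse, and each was lost without old HFD replicate 4 or 6, as was that on *Abcd3*.

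*Etfb*, the beta subunit of the electron transfer flavoprotein (chromosome 7, 43444083 to 43457800, plus strand), was the gene called higher. It had 75.5, 89.8 and 92.2 CPM in young ND mice, and 408 CPM in old HFD replicate 2 against 87.2 to 112 CPM in the other old HFD mice, 3 of which also lay above the young ND range. The log2 fold change of 0.76 ± 0.26 (SE, adjusted p = 0.0326) became 0.21 (adjusted p = 0.198) without that mouse, and the call was also lost without young ND replicate 1, 2, 3 or 4. In the annotation 53.0% of its exon length is shared with another annotated gene on the same strand.

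Without the 4 mice this comparison gave 9 genes higher and 2 lower, where 10.6% and 8.55% of all tested genes were called, so the balance of calls turned from lower to higher. The 2 lower were *Hacl1* and *Abcd3*. *Decr1* (0.77 ± 0.19, SE, adjusted p = 0.0112) and *Cpt1a* (0.59 ± 0.17, SE, adjusted p = 0.025) were among the 9 higher. The calls on *Hadha* (−0.29, adjusted p = 0.15), *Acadvl* (−0.24, adjusted p = 0.101) and *Crat* (−0.34, adjusted p = 0.213) were lost.

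Other genes of the pathway were read from lists outside the 39. Of 31 tested further genes of fatty acid and ketone body handling, 1 was called higher on HFD in old mice and 0 lower (1.37% and 1.64% of all tested genes), and 1 was lower with age on each diet (1.24% on ND and 0.42% on HFD). The former was *Slc27a2*, the very-long-chain acyl-CoA synthetase and transporter, with 808 ± 209 CPM in old ND and 1399 ± 203 CPM in old HFD mice (SD, n = 6), and a log2 fold change of 0.77 ± 0.15 (SE, edgeR adjusted p = 0.00761). In old HFD over young ND, 1 gene was higher, the transporter *Abcd4* (0.84 ± 0.19, SE, edgeR adjusted p = 0.00254), and 3 were lower, among them *Acadsb*, the short branched-chain acyl-CoA dehydrogenase (−0.62 ± 0.17, SE, edgeR adjusted p = 0.00785). These shares lie under the 17.3% and 12.9% of all tested genes. Without the 4 mice the calls on *Slc27a2* (0.67) and *Abcd4* (0.62) were kept and that on *Acadsb* (−0.41, edgeR adjusted p = 0.0553) was lost.

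Of 19 genes of peroxisome assembly and membrane, all 19 had negative values with age on ND and 3 were called lower, where 1.24% of all tested genes were. *Pex11a*, which drives peroxisome division, fell by 0.81 ± 0.17 on the log2 scale with age on ND (SE, edgeR adjusted p = 0.00485) and rose by 0.66 ± 0.17 on HFD in old mice (SE, edgeR adjusted p = 0.0324). *Pxmp4*, a peroxisomal membrane protein, was lower with age on ND at −0.60 ± 0.15 (SE, edgeR adjusted p = 0.0149). In old HFD over young ND, *Pxmp4* (−0.59 ± 0.15, SE, edgeR adjusted p = 0.00578) and *Pex5*, the receptor that imports matrix proteins (−0.47 ± 0.13, SE, edgeR adjusted p = 0.009), were 2 of 3 genes called lower, and 1 was higher, against 12.9% and 17.3% of all tested genes. Both of these calls were kept without the 4 mice. Those on *Pex11a* (age on ND −0.68, edgeR adjusted p = 0.0769; diet in old 0.63, edgeR adjusted p = 0.0792) and on *Pxmp4* with age on ND (−0.55, edgeR adjusted p = 0.123) were lost.

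Among 7 regulators, 1 was called lower on HFD in young mice, where 1.59% of all tested genes were: *Ppard*, the delta member of the PPAR family, at −1.91 ± 0.47 (SE, edgeR adjusted p = 0.0264). Its young ND level varied widely, 15.1 ± 10.9 CPM (SD, n = 6) against 4.1 ± 0.9 CPM on HFD. *Ppargc1b*, a coactivator of mitochondrial genes, was higher in old HFD over young ND at 1.29 ± 0.30 (SE, edgeR adjusted p = 0.00358), at 7.0 ± 4.2 against 2.8 ± 0.4 CPM (SD, n = 6). *Ppard* (−1.83 ± 0.48, SE, edgeR adjusted p = 0.00688) and *Esrra*, the estrogen-related receptor alpha (−0.47 ± 0.17, SE, edgeR adjusted p = 0.0463), were lower in that comparison, which called 17.3% of all tested genes higher and 12.9% lower. Of the calls named outside the 39 genes, 3 were lost in some of the 24 fits that left out 1 mouse: *Esrra* was called in 7 of them, *Ppard* in young mice in 18 and *Pex11a* in old mice in 20. Without the 4 mice both calls on *Ppard* were kept, and those on *Ppargc1b* (0.68, edgeR adjusted p = 0.0989) and *Esrra* (−0.55, edgeR adjusted p = 0.0557) were lost.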

How the data were processed

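Hepatocytes were isolated by collagenase perfusion and Percoll, and poly(A) RNA was sequenced. The authors aligned reads to mm10 with STAR (2.7.3a in the submitters' processing notes, after FastQC 0.11.8), using GENCODE vM23, and the deposited counts are reads per gene from HTSeq 0.11.2. Strand and duplicate handling are not given in the sources used here. The deposited FPKM values, which the authors made with Cufflinks and adjusted for batch, divide by the length of the whole gene including introns: the ratio of CPM to FPKM over gene span in kb had a median of 1.01 over the 39 genes. They were therefore used only for an alternative test, and levels between genes were set per kilobase of exon from GENCODE vM21. Exon lengths and overlaps therefore come from another release than the counts.

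Counts were fitted with edgeR 4.0.16 (R 4.3.3): filterByExpr, TMM, the quasi-likelihood test with group and batch over all 24 mice, Benjamini-Hochberg adjustment over all tested genes. Each labelled sample was taken as 1 mouse. Nothing in the labels says more about how replicates were separated, so p-values measure the spread between these samples. No pair of libraries of the same group differed by as little as sampling noise. Levels by mouse are CPM, or log2 CPM with a prior count of 2. Old and young mice came from different substrains. The 39 genes, the other lists and the marker lists were chosen with earlier results of these data known. Values for every mouse were to be given for called genes and for both ketone body genes, and up to 3 called genes of each other list by smallest adjusted p. *Hadh*, *Acadm*, *Abcd2*, *Acaa1a*, *Acaa1b*, *Acox2*, *Acox3*, *Hadhb* and the genes named only without 4 mice were chosen after their values were seen. Alternatives were DESeq2 1.42.0, limma 3.58.1 on log2(FPKM + 1), other scaling, filtering, batch and sample choices, and each mouse left out. The script was tested on simulated data.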

Additional observations from a re-analysis of the deposited data

Results flagged for a closer look

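For 15 genes (the called genes and *Bdh1*) and for the mean levels of the 39 genes and of their arms, 76 sets of 6 mice were examined. A mouse stood apart from its group by Dixon's ratio at the 95% level in 4 of them, and chance alone sets apart about 1 in 20 groups. In old ND replicate 4, *Acsl1* had the group's lowest value of 8.06 log2 CPM, and the next mouse had 9.18. *Abcd3* was lowest in the same mouse, at 7.74 against 8.73 log2 CPM in the next. *Etfb* in old HFD replicate 2 was highest at 8.67 log2 CPM, with the next mouse at 6.81. *Slc25a20* in young HFD replicate 1 was lowest at 6.85 log2 CPM, with the next mouse at 7.14.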

How the results depend on the processing

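No called change reversed under any alternative run, but the number of calls among the 39 genes moved with most of them; the causes were not tested. In the order diet in young, diet in old, age on ND, age on HFD, old HFD over young ND and interaction, 2, 3, 7, 1, 6 and 0 genes were called. DESeq2 called 4 for diet in young and 12 for diet in old. DESeq2's scaling in edgeR called 5 for diet in old, where 1.77% of all genes were called higher and 1.74% lower. Without a count filter, 10, 14, 6 and 1 were called for diet in old, age on ND, age on HFD and the interaction. That fit called 1.67%, 5.47%, 2.71% and 0.309% of all genes higher and 1.75%, 0.881%, 1.11% and 1.51% lower. Without batch, 0, 4, 0 and 3 were called for diet in young, age on ND, age on HFD and old HFD over young ND. Of all genes, 0.633%, 3.98%, 0.751% and 12.5% were called higher there and 0.648%, 0.648%, 0.103% and 9.96% lower. With only the compared mice in the fit, 15, 0, 11, 0 and 3 were called in the first 5 comparisons. These fits called 10.4%, 0.0318%, 7.31%, 0.378% and 10.7% of all genes higher and 8.27%, 0.0874%, 3.49%, 0.00803% and 6.71% lower. For age on ND the 11 left out *Acsl1*, *Slc25a20* and *Abcd3*. With limma on log2(FPKM + 1) the counts in the first 5 comparisons were 1, 0, 0, 0 and 1, in batch 1 alone 0, 0, 0, 0 and 3, and in batch 2 alone 0, 0, 0, 0 and 1. For old HFD over young ND these fits called 3.57%, 4.24% and 2.40% of all genes higher and 5.11%, 2.55% and 1.93% lower. Without the 4 mice over 200 CPM of Kupffer cell markers, an alternative added after seeing the data, the counts were 10, 11, 0, 0 and 11.

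Leaving out 1 mouse gave 1 to 3 calls for diet in young, 0 to 11 for diet in old, 1 to 15 for age on ND, 0 to 3 for age on HFD, 2 to 10 for old HFD over young ND and 0 for the interaction. Shares over all genes were not counted for these fits. Diet in old gave 0 without old ND replicate 1 or 2 and 11 without old HFD replicate 4. Age on ND gave 1 without old ND replicate 2 or 4 or young ND replicate 5, and 15 without old ND replicate 5. With the replicate number as a block, 6 were called for diet in old and 14 for age on ND. Of all genes, 1.55% and 8.13% were called higher there and 1.73% and 1.81% lower. *Etfb* lost its call (0.65, adjusted p = 0.071), and the other 18 calls were kept. Same-numbered mice deviated together with a mean correlation of 0.18 (−0.32 to 0.55), over 0.1 in 21 of 36 pairs. Batch, which mostly follows the number, was not removed first, and differently numbered mice were not compared. Whether the numbers pair the mice therefore cannot be told from these values.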
